A study of Oryza sativa with 9 samples.

Results

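Catalases and superoxide dismutases (SODs) were followed across 9 root RNA-seq libraries of rice. The 9 loci were taken as a named list, 3 catalases and 6 SODs, out of 57931 features in the deposited table, by a rule that uses no measured value. Roots were harvested a month after planting from Sea Rice 86 (SR86), a salt-tolerant cultivar bred from a wild coastal strain, and from the common rice R1, a japonica-indica hybrid with low salt tolerance. The libraries fall into 3 groups of 3, SR86 in salt water (SR86 SW), SR86 in fresh water (SR86 FW) and R1 in fresh water (R1 FW), and each library carries its group and its number (SR86 FW1 and so on). SR86 in SW was compared with SR86 in FW for the response to sea water, and SR86 with R1 in FW for the difference between strains. The same SR86 FW libraries serve in both comparisons, and no library of R1 in SW was analysed here. According to the study R1 does not survive in sea water. The labels give both cultivars as japonica, and the study's own genome work places SR86 with indica. It calls the replicates biological without saying whether they were separate plants or pools, so the p-values measure the spread between these libraries, which may be technical in part.

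SODs and catalases act in sequence. A SOD turns superoxide, a by-product of respiration, photosynthesis and membrane oxidases, into hydrogen peroxide, and catalase splits hydrogen peroxide into water and oxygen in peroxisomes. SODs are grouped by their metal: copper-zinc enzymes sit in the cytosol and in plastids, the manganese enzyme in mitochondria and iron enzymes in plastids. In roots under salt, these enzymes belong to the first line of removal of reactive oxygen, beside the ascorbate-glutathione cycle and the peroxidases. The catalases were CatA (LOC_Os02g02400, chromosome 2), CatB (LOC_Os06g51150, chromosome 6) and CatC (LOC_Os03g03910, chromosome 3). The cytosolic copper-zinc SODs were LOC_Os03g22810 on chromosome 3, here cCuZn-SOD1, and LOC_Os07g46990 on chromosome 7, here cCuZn-SOD2. The others were the plastid copper-zinc SOD LOC_Os08g44770 on chromosome 8 (pCuZn-SOD), the manganese SOD LOC_Os05g25850 on chromosome 5 (Mn-SOD), and the iron SODs LOC_Os06g05110 (Fe-SOD a) and LOC_Os06g02500 (Fe-SOD b), both on chromosome 6.

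Values are FPKM, fragments counted per kilobase of transcript and scaled to the mapped fragments of the library. This allows levels of different genes to be compared within a library. Over all features the values summed to 622262 to 647564 FPKM in SR86 SW, 705081 to 726598 in SR86 FW and 641897 to 672686 in R1 FW. The same FPKM is thus not the same share of the total in each group. The study also names a normalization by the trimmed mean of M-values (TMM). Whether the deposited values carry it is not known. The number of reads per library is not in the table, but the spacing of low values gave depths of 1.75 to 2.41 times R1 FW1 in SR86 SW, 0.957 to 1.36 times in SR86 FW and 1.00 to 1.67 times in R1 FW. All 6 root markers were above 0 in every library, with sums of 868 to 1695 FPKM in SR86 SW, 302 to 1048 in SR86 FW and 559 to 631 in R1 FW. The single root markers did not all go the way of these sums. LOC_Os02g44310 had 769, 693 and 134 FPKM in SR86 SW, against 39.2, 203 and 35.7 FPKM in SR86 FW. LOC_Os02g02170 was lower in SW, at 1.06, 0.32 and 1.04 FPKM, against 4.47, 12.6 and 25.9 FPKM in SR86 FW. The 13 nuclear photosynthesis genes taken as green-tissue markers summed to 19.0 to 44.4 FPKM in SR86 SW, 27.1 to 94.8 in SR86 FW and 16.2 to 22.9 in R1 FW. Of these 13, 12 were above 0 in every library. The SR86 FW libraries stood apart in organelle transcripts. Features named LOC_Osm1, of the mitochondrial genome, summed to 244 to 568 FPKM in SR86 SW, 992 to 2518 in SR86 FW and 222 to 541 in R1 FW. Features named LOC_Osp1, of the plastid genome, summed to 215 to 352, 406 to 939 and 185 to 307 FPKM.

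CatC, the catalase best known from green leaves, and cCuZn-SOD2 fell in SR86 roots in SW, and CatC was higher in SR86 than in R1 in FW. Both calls of CatC rest on the same SR86 FW libraries, so they are not independent. The remaining loci were not called in either comparison. Calls needed both a 2-fold difference and a limma adjusted p below 0.05. They were made on log2(FPKM + 0.5) with Benjamini-Hochberg adjustment over every feature averaging 0.5 FPKM or more in the 6 libraries, a filter that all 9 loci passed. CatC passed it only through SR86 FW, the group where it is high, and with no filter its limma adjusted p was 0.0477 for SW over FW and 0.0182 for SR86 over R1. In bulk roots, fewer cells that express a gene and less RNA per cell cannot be told apart. Between SW and FW 2 of the 9 were called, both lower, where 12.7% of the 23718 features tested were called, 8.41% higher and 4.29% lower. For SR86 against R1 1 of the 9 was called, higher, where 14.1% of 23168 features were called, 6.85% higher and 7.22% lower. An unadjusted p under 0.05 was reached by 5 of the 9 loci in the first comparison and 3 of the 9 in the second, against 39.1% and 44.1% of all features. Of the features called between SW and FW 66.2% were higher in SW, but 46% with quantile normalization and 51.4% with median-ratio size factors, which move the median of all features to 0.01 and 0.02. The log2 fold changes of the 9 loci had a median of -0.10 for SW over FW, against 0.17 over all features tested. For SR86 over R1 the medians were 0.27 and -0.03.

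**Figure D1:**
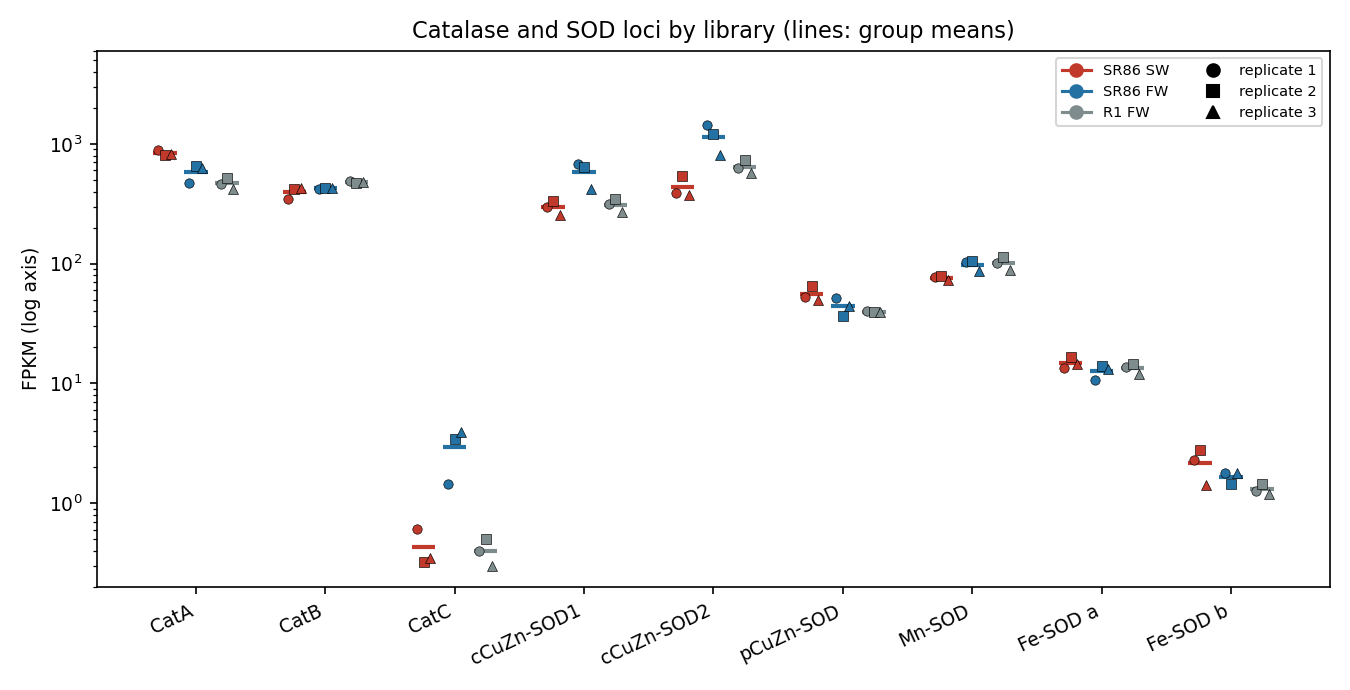
FPKM (log axis) of the 9 loci in each library, with replicates as symbols and group means as lines, from SR86 SW to SR86 FW to R1 FW. The catalases CatA and CatB and the cytosolic copper-zinc SODs lay at 257 FPKM or more in every library, while CatC was at or below 3.93 FPKM.

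CatA was the most abundant of the 9 transcripts in SR86 SW, at 898, 812 and 820 FPKM, against 475, 660 and 630 FPKM in SR86 FW. The lowest SW library was thus above the highest FW library. The log2 fold change was 0.53 (standard error 0.20, 95% interval 0.06 to 1.00, limma adjusted p = 0.0954), short of both thresholds. Its size moved with the scaling of the libraries, to 0.92 with quantile normalization (limma adjusted p = 0.0316) and 0.36 with median-ratio size factors (limma adjusted p = 0.212), and no alternative called it. In R1 FW the gene had 465, 518 and 420 FPKM, which overlapped SR86 FW (log2 fold change 0.32, 95% interval -0.09 to 0.73, limma adjusted p = 0.193). Ranked by mean among all features, CatA stood at place 41 in SR86 SW, 102 in SR86 FW and 122 in R1 FW.

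CatB, an isozyme known from rice roots, had 348, 417 and 430 FPKM in SR86 SW, against 423, 425 and 427 FPKM in SR86 FW. The groups overlapped, with a log2 fold change of -0.10 (95% interval -0.47 to 0.27, limma adjusted p = 0.667), which turned to 0.24 with quantile normalization. R1 FW had 491, 470 and 477 FPKM, each above the SR86 FW libraries, a log2 difference of -0.17 between SR86 and R1 (95% interval -0.42 to 0.08, limma adjusted p = 0.241). Both intervals lie within a 2-fold difference.

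CatA and CatB together made up nearly all catalase transcripts, and their ratio, chosen after its values were seen, does not depend on a scaling factor of the library. Both cultivars were mapped to one transcript set, and a mapping difference of either gene between them would not cancel in this ratio. CatA over CatB was 2.58, 1.95 and 1.90 in SR86 SW, against 1.12, 1.55 and 1.47 in SR86 FW. In R1 FW it was 0.948, 1.10 and 0.882. No library of one group overlapped the next group in either comparison. On the log2 scale SW exceeded FW by 0.63 and SR86 exceeded R1 by 0.49, with an exact two-sided permutation p = 0.1 in each case, the smallest that 3 libraries against 3 allow. The summed catalase level was 1230 to 1250 FPKM in SR86 SW, 899 to 1089 in SR86 FW and 897 to 989 in R1 FW.

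CatC was scarce in all groups. It had 0.61, 0.32 and 0.35 FPKM in SR86 SW, against 1.45, 3.41 and 3.93 FPKM in SR86 FW. R1 FW had 0.4, 0.5 and 0.3 FPKM, so SR86 FW was the high group and did not overlap with the others. The SW mean was 0.146 of the FW mean in SR86. On log2(FPKM + 0.5), which understates changes at such low levels, the fold change was -1.82 (standard error 0.37, 95% interval -2.70 to -0.94, limma adjusted p = 0.0257). The SR86 FW mean was 7.33 times the R1 FW mean, and the fold change on log2(FPKM + 0.5) was 1.85 (standard error 0.34, 95% interval 1.05 to 2.66, limma adjusted p = 0.0111). At this level the pseudocount sets the size, and with 0.1 in place of 0.5 the fold changes were -2.45 and 2.50. The means of the other groups, 0.427 FPKM in SR86 SW and 0.4 FPKM in R1 FW, were below the filter of 0.5 FPKM. CatC made up 0.161% to 0.371% of summed catalase in SR86 FW and 0.0506% or less elsewhere.

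Leaving out single libraries ended the calls of CatC but did not turn its direction. Between SW and FW the limma adjusted p was 0.0822 without SR86 SW1, 0.0794 without SR86 SW2 and 0.09 without SR86 FW2, with log2 fold changes from -2.18 to -1.59 over the 6 fits that left out a library. Calls over all features fell too, from 3012 to 60, 623 and 358 without these libraries. Between the strains the limma adjusted p of CatC was 0.0545 without R1 FW1 and 0.0554 without R1 FW3, with log2 fold changes from 1.62 to 2.22. There the calls over all features fell from 3261 to 1646 and 1853. Green-tissue markers summed to 94.8, 31.0 and 27.1 FPKM in SR86 FW by library number, highest where CatC was lowest in that group. In SR86 SW they were 19.0, 44.4 and 19.3 FPKM, and in R1 FW 22.5, 22.9 and 16.2 FPKM. Their part in the values of CatC was not tested.

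The cytosolic copper-zinc SODs had their highest levels in SR86 FW. cCuZn-SOD2 had 387, 537 and 377 FPKM in SR86 SW, against 1439, 1203 and 803 FPKM in SR86 FW. It fell in SW by 1.38 on the log2 scale (standard error 0.28, 95% interval -2.04 to -0.73, limma adjusted p = 0.0244), without overlap. The value was -1.04 with quantile normalization and -1.55 with median-ratio size factors. In R1 FW it had 635, 736 and 569 FPKM, below every SR86 FW library, which gave SR86 over R1 a log2 fold change of 0.79 (95% interval 0.21 to 1.38, limma adjusted p = 0.0507). By mean it was at place 114 of all features in SR86 SW, 37 in SR86 FW and 79 in R1 FW.

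cCuZn-SOD1 had 300, 333 and 257 FPKM in SR86 SW, against 686, 644 and 422 FPKM in SR86 FW. R1 FW had 312, 345 and 269 FPKM. SR86 FW did not overlap with either group. SW over FW gave a log2 fold change of -0.95 (95% interval -1.50 to -0.40, limma adjusted p = 0.0361) and SR86 over R1 one of 0.89 (95% interval 0.38 to 1.41, limma adjusted p = 0.026), both just short of 2-fold and so not called. With median-ratio size factors the difference between SW and FW was -1.13 and was called (limma adjusted p = 0.0333).

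**Figure D2:**
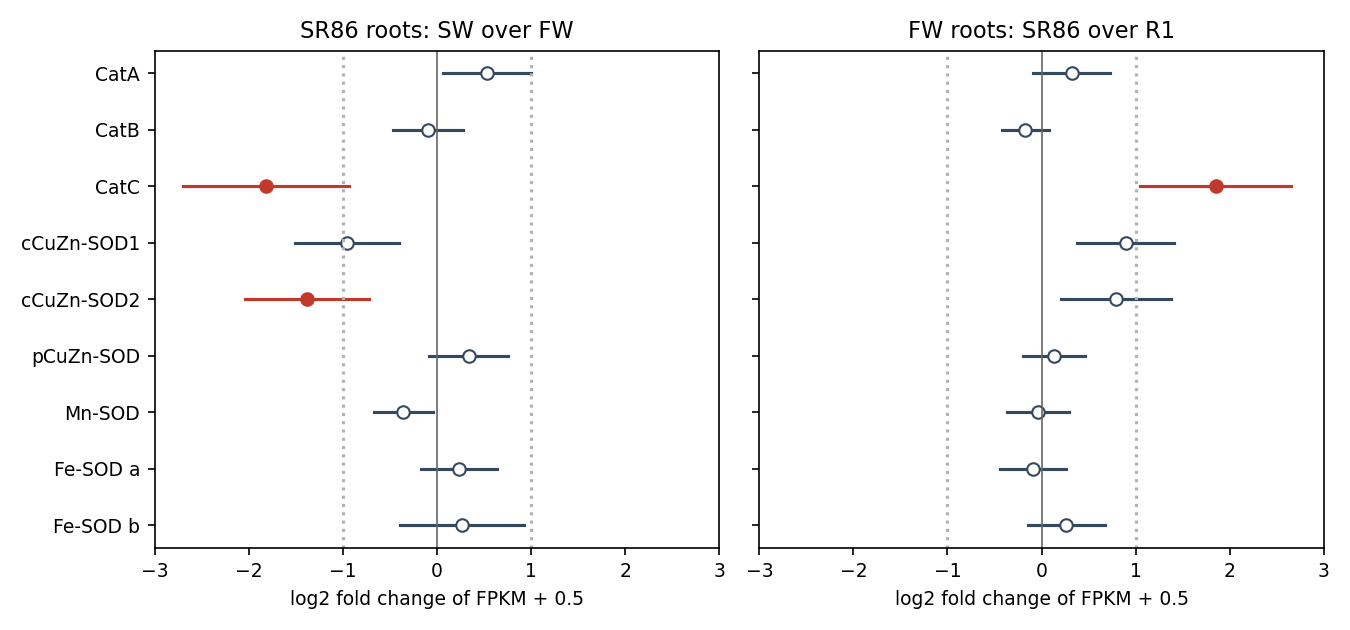
Log2 fold changes of FPKM + 0.5 with 95% intervals (limma) for SW over FW in SR86 (left) and SR86 over R1 in FW (right), with dotted lines at 2-fold and filled red points for called genes. CatC at -1.82 and cCuZn-SOD2 at -1.38 were called on the left, and CatC at 1.85 on the right.

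Library by library, both cytosolic SODs had the order of the mitochondrial transcripts. In the order of library number, LOC_Osm1 features summed to 410, 568 and 244 FPKM in SR86 SW. The sums were 2518, 2279 and 992 FPKM in SR86 FW, and 347, 541 and 222 FPKM in R1 FW. In each of the 3 groups, cCuZn-SOD1 and cCuZn-SOD2 ranked the libraries in the same order as these sums. Of 23742 features that averaged 0.5 FPKM or more in the 9 libraries, 2.69% did so and 4.03% had the reverse order in all groups, and no other member of the list had either order. With the log2 sum as a covariate in a fit of all 9 libraries, chosen after seeing the data, cCuZn-SOD2 differed by -0.42 between SW and FW on the log2 scale (limma adjusted p = 0.396) and cCuZn-SOD1 by -0.10 (limma adjusted p = 0.814). The strains differed by -0.23 and -0.012 in these genes (limma adjusted p = 0.783 and 0.990). CatC kept its size in that fit, with -2.18 between SW and FW and 2.24 between the strains, but not its calls (limma adjusted p = 0.0795 and 0.134). The sums of the SR86 FW libraries lay above all others, so the covariate and the SR86 FW group cannot be told apart.

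**Figure D3:**
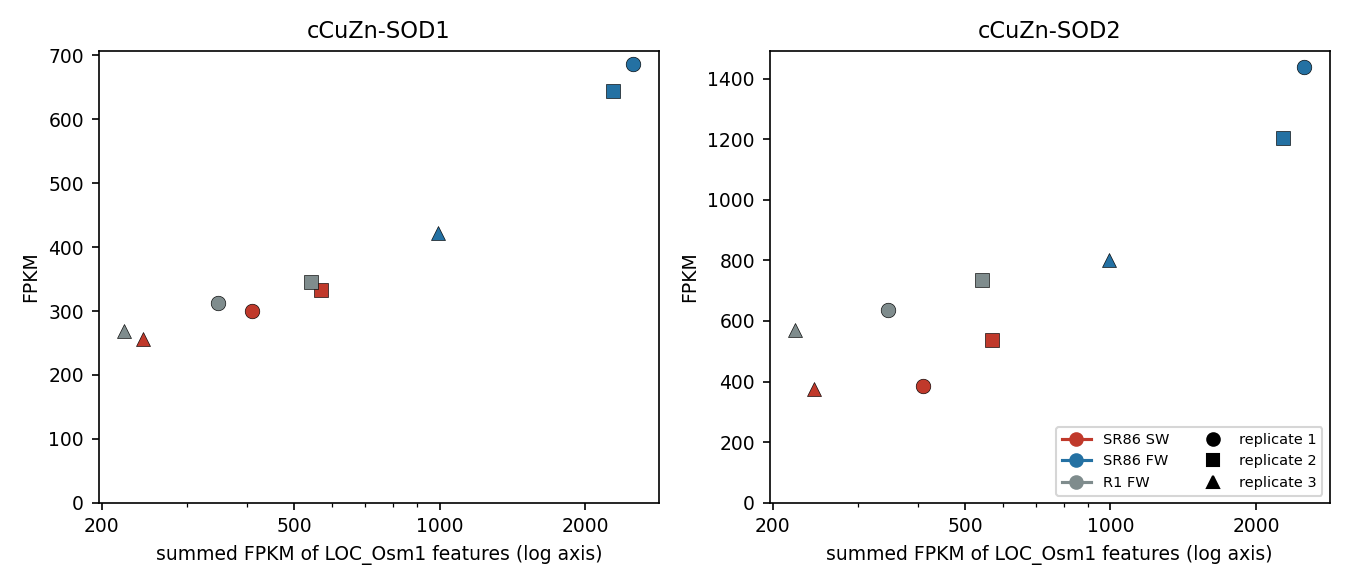
FPKM of cCuZn-SOD1 (left) and cCuZn-SOD2 (right) against the summed FPKM of mitochondrial-genome features named LOC_Osm1 (log axis), 1 point per library. The SR86 FW libraries lay at sums of 992 FPKM or more, and within each group the libraries had the same order on both axes.

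The call of cCuZn-SOD2 between SW and FW was lost with no filter (limma adjusted p = 0.0526) and when some single libraries were left out. Its limma adjusted p was 0.0901 when SR86 SW1 was left out, 0.0576 for SR86 SW2, 0.0677 for SR86 FW1 and 0.0862 for SR86 FW2. Calls over all features fell too, from 3012 to 60, 623, 983 and 358 in the same order. The log2 fold change of cCuZn-SOD2 stayed between -1.62 and -1.20. SR86 FW3 had the lowest level of both cytosolic SODs in its group. Without it, cCuZn-SOD1 and cCuZn-SOD2 were called between the strains, with log2 fold changes of 1.11 and 1.03 (limma adjusted p = 0.00312 and 0.00638), and cCuZn-SOD1 was called between SW and FW, with -1.17 (limma adjusted p = 0.0149).

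The ratio of the 2 cytosolic genes was lower in every SW library than in every FW library. The level of cCuZn-SOD2 was 1.29, 1.61 and 1.47 times that of cCuZn-SOD1 in SR86 SW, against 2.1, 1.87 and 1.90 times in SR86 FW. In R1 FW the ratio was 2.03, 2.13 and 2.12. It was chosen after its values were seen, and its log2 difference of -0.43 between SW and FW gave an exact two-sided permutation p = 0.1, the smallest possible. For SR86 over R1 the difference was -0.10, with overlap (exact permutation p = 0.2).

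The organelle SODs were not called in either comparison. pCuZn-SOD, the plastid copper-zinc enzyme, had 52.6, 64.5 and 49.5 FPKM in SR86 SW, against 51.2, 36.7 and 44.2 FPKM in SR86 FW. The groups overlapped (log2 fold change 0.33, 95% interval -0.08 to 0.75, limma adjusted p = 0.201). R1 FW had 40.1, 39.3 and 39.6 FPKM, within the range of SR86 FW (log2 fold change 0.14, 95% interval -0.19 to 0.46, limma adjusted p = 0.47).

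Mn-SOD, the mitochondrial enzyme, had 77.0, 78.5 and 73.5 FPKM in SR86 SW, against 104, 104 and 87.1 FPKM in SR86 FW. Every SW library was below every FW library, but the difference was small (log2 fold change -0.36, 95% interval -0.67 to -0.05, limma adjusted p = 0.0925). R1 FW had 101, 114 and 88.2 FPKM and overlapped SR86 FW (log2 fold change -0.04, 95% interval -0.37 to 0.29, limma adjusted p = 0.847). Within SR86 SW and R1 FW the libraries had the same order in this nuclear gene as in the LOC_Osm1 sums, but not within SR86 FW. With the LOC_Osm1 covariate, Mn-SOD differed by 0.067 between SW and FW (limma adjusted p = 0.853). Between the strains it differed by -0.49 in that fit (limma adjusted p = 0.198, unadjusted p = 0.0194). A link between Mn-SOD and the mitochondrial-genome transcripts was not tested.

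Fe-SOD a had 13.5, 16.7 and 14.5 FPKM in SR86 SW, 10.7, 13.9 and 13.3 in SR86 FW and 13.6, 14.5 and 12.1 in R1 FW. Fe-SOD b was lower still, at 2.29, 2.78 and 1.42 FPKM in SR86 SW, 1.79, 1.43 and 1.78 in SR86 FW and 1.27, 1.43 and 1.2 in R1 FW. Groups overlapped for both genes in both comparisons. For SW over FW the log2 fold changes were 0.23 for Fe-SOD a (95% interval -0.17 to 0.64, limma adjusted p = 0.345) and 0.27 for Fe-SOD b (95% interval -0.39 to 0.93, limma adjusted p = 0.506). For SR86 over R1 they were -0.09 (95% interval -0.44 to 0.26, limma adjusted p = 0.675) and 0.27 (95% interval -0.15 to 0.68, limma adjusted p = 0.271).

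Counted over the list, SW and FW did not overlap in 5 of the 9 loci, where 44.9% of the features tested did not. CatA was the higher 1, against 28.3% of features, and 4 were lower in SW, against 16.6%. SR86 and R1 did not overlap in 4 of the 9, where 50.9% did not. In 3 of these SR86 was higher, against 23.6% of features, and CatB was the 1 lower, against 27.3%. Without regard to direction, both counts are near the shares of all features. The order of the levels was led by cCuZn-SOD2 in both FW groups and by CatA in SW. In SR86 SW, cCuZn-SOD2 (377 to 537 FPKM) and CatB (348 to 430 FPKM) overlapped as the next in order. In SR86 FW, cCuZn-SOD1 (422 to 686 FPKM) overlapped both CatA (475 to 660 FPKM) and CatB (423 to 427 FPKM). Every CatA library of that group was above every CatB library. In R1 FW, CatB and CatA overlapped. Mn-SOD, pCuZn-SOD and Fe-SOD a followed in this order in all 3 groups, each without overlap with the next, and Fe-SOD b and CatC closed the list.

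Summed over each family, SOD transcripts were above catalase transcripts in FW and below them in SW. The 6 SODs summed to 832, 1033 and 773 FPKM in SR86 SW, against 2291, 2003 and 1371 FPKM in SR86 FW. R1 FW had 1103, 1251 and 979 FPKM. Relative to the summed catalases in the same library, SOD transcripts were at 0.667, 0.840 and 0.618 in SR86 SW, 2.55, 1.84 and 1.29 in SR86 FW and 1.15, 1.26 and 1.09 in R1 FW. Every SW library was thus below 1 and every FW library above it. The cytosolic copper-zinc genes gave 82.0% to 84.3% of the SOD sum in SR86 SW, 89.3% to 92.7% in SR86 FW and 85.6% to 86.4% in R1 FW. Sums over the list are given with no test.

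**Figure D4:**
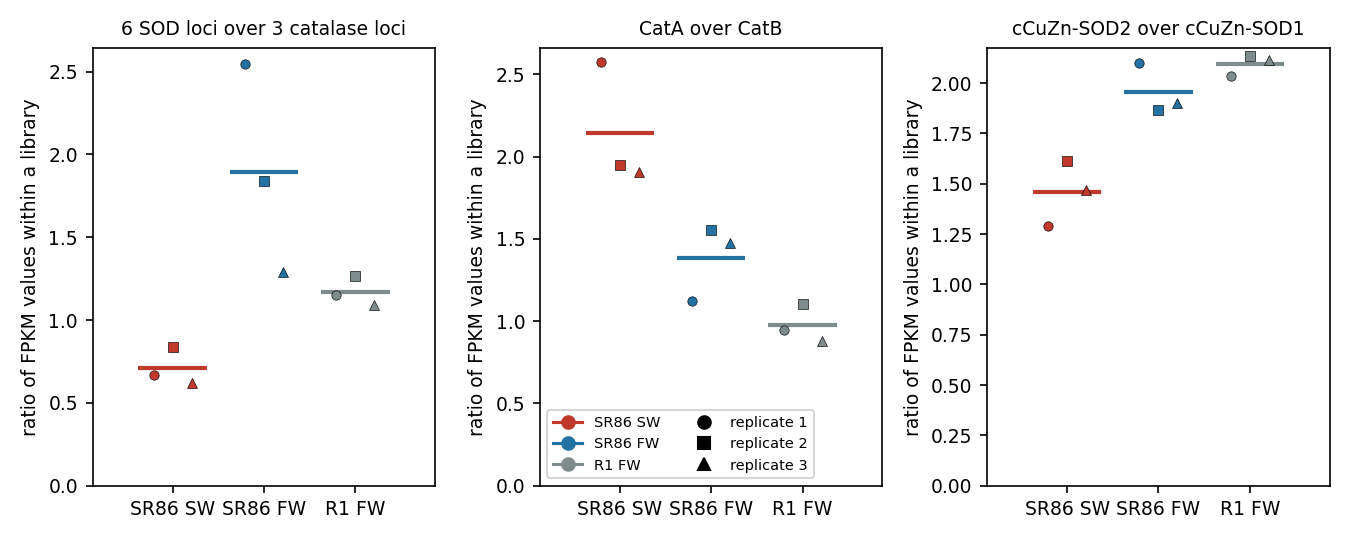
Ratios of FPKM values within each library for the summed SODs over the summed catalases, CatA over CatB, and cCuZn-SOD2 over cCuZn-SOD1, with replicates as symbols and group means as lines, from SR86 SW to SR86 FW to R1 FW. The SW libraries lay at 0.618 to 0.840, 1.90 to 2.58 and 1.29 to 1.61 in the 3 panels, outside the range of the FW libraries in each.

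Other genes that make or remove superoxide and hydrogen peroxide were taken as a list of 38 loci from general knowledge of rice, of which 36 were tested in each comparison. Between SW and FW 4 were called higher and 2 lower, 16.7% of those tested, against 12.7% of all features. For SR86 against R1 1 was called, lower, which is 2.78% of those tested, against 14.1% of all features. The medians of their log2 fold changes were 0.23 and -0.11, close to the 0.17 and -0.03 of all features. This list was not refitted with other scalings or with libraries left out. The study's tables, from which annotations are quoted below, list genes that the study itself found differentially expressed. Of the 2 called lower in SW, LOC_Os02g34810 is annotated in the study's tables as the thylakoid ascorbate peroxidase OsAPx8, and had 3.62, 3.65 and 2.95 FPKM in SR86 SW, against 9.61, 11.8 and 12.3 FPKM in SR86 FW (log2 fold change -1.58, limma adjusted p = 0.0111). The other, LOC_Os04g53210, is annotated as a hydroxyacid oxidase, a family of peroxisomal enzymes that release hydrogen peroxide. It had 73.4, 113 and 97.3 FPKM in SR86 SW, against 304, 292 and 202 FPKM in SR86 FW (log2 fold change -1.49, limma adjusted p = 0.0161).

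The 4 that rose in SW were all listed as respiratory burst oxidases, plasma membrane enzymes that make superoxide outside the cell. They were 50% of the 8 such loci tested, where 8.41% of all features were called higher. The list was drawn up with earlier results of these data known, so this contrast is no test of the class. They were LOC_Os01g25820, LOC_Os05g45210 and LOC_Os01g61880, annotated as such in the study's tables, and LOC_Os08g35210, annotated there as a ferric reductase. Their log2 fold changes were 1.52 to 1.88, and all 8 loci tested had a positive value, with a median of 1.60. LOC_Os01g25820 had 30.5, 30.3 and 12.0 FPKM in SR86 SW, against 6.19, 4.72 and 6.3 FPKM in SR86 FW (limma adjusted p = 0.0238). Of the 7 ascorbate peroxidases tested between SW and FW, LOC_Os02g34810 was the only one called. The 1 gene called between the strains was LOC_Os12g07830, annotated as the stromal ascorbate peroxidase OsAPx5, with 0.07, 0 and 0 FPKM in SR86 FW, against 1.2, 1.12 and 1.01 FPKM in R1 FW (limma adjusted p = 0.00181). It passed the filter through R1 FW alone. One transcript set was used for mapping both cultivars, so a value near 0 in SR86 cannot be told apart from sequence that maps poorly.

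The genes whose pattern over the 9 libraries was most like that of a called member were found by the root mean square difference of log2(FPKM + 0.5), centred on each gene's mean, among 14306 features with a mean of at least 5 FPKM. For CatC these were LOC_Os04g54590 (expressed protein, 0.25), LOC_Os09g10010 (expressed protein, 0.29) and LOC_Os01g70890 (histone-like transcription factor, 0.30). LOC_Os04g54590 had means of 8.20 FPKM in SR86 SW, 29.7 in SR86 FW and 7.50 in R1 FW. For cCuZn-SOD2 they were LOC_Os01g73890 (transcription factor IIA gamma chain, 0.12), LOC_Os01g66030 (OsMADS2, 0.13) and LOC_Os05g50654 (mitochondrial import receptor subunit TOM7-1, 0.15). By the same measure the 2 cytosolic SODs differed from each other by 0.25. The closest pair among the 9 loci was pCuZn-SOD and Fe-SOD b, at 0.15, and the most distant was CatC and pCuZn-SOD, at 1.03.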

How the data were processed

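Root mRNA was sequenced from 9 libraries made with a stranded kit, 3 per group, and groups and replicate numbers were taken from the titles of the libraries. One sentence of the study's methods gives the strains and waters the other way round, and the labels were followed. The authors trimmed reads with Trimmomatic, mapped them with Bowtie2 to the MSU6 transcript set, estimated levels with RSEM and normalized them by TMM. Reads shared by several transcripts are divided among them by RSEM, so values of near-identical copies are uncertain. They deposited FPKM values, rounded to 2 decimals, 1 column per library, and 0 columns were left unmatched. The authors tested read counts, which FPKM values do not give, so limma 3.58.1 in R 4.3.3 was used on log2(FPKM + 0.5), two-sided, with a trend of variance on mean, a filter of 0.5 FPKM on the mean of the 6 libraries compared, and the authors' thresholds of 0.05 and 2-fold. Fold changes on this scale understate those of low genes. The fit was tested on simulated data.

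Relative depth came from the ratio of low values (at least 0.15 FPKM) of the same feature in pairs of libraries, whose most frequent value is the ratio of 1 read to 1 read. These ratios rested on 104 to 124 low values per SR86 library, against 850 for R1 FW2 and 530 for R1 FW3. The study gives an approximate number of reads per sample but none for each library, so the absolute depth of each is unknown. Names of the 9 loci follow the list. In the study's tables, which list the genes that it found differentially expressed, 3 of the 9 are annotated. Of the deposited locus names, 0 matched the RefSeq gene table (assembly ASM3414082v1), so no coordinates are given. The pseudocount was set to 0.1 or 1, and the filter dropped or raised to 1 FPKM. Libraries were rescaled by quantiles or by median-ratio size factors, left out in turn, blocked by replicate number, or fitted with all 9 together. The LOC_Osm1 sum as a covariate was added after seeing the data, as were the leave-one-out values of the ratios. The genes named are the 9 loci, the 3 features most like each called one, and called genes of the list of 38 that the study's tables annotate. Members, lists and tests were chosen with earlier results of these data known. Tables and figures were made in Python 3.11.15 with numpy 2.4.6, scipy 1.17.1, pandas 2.3.3 and matplotlib 3.10.9.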

Additional observations from a re-analysis of the deposited data

How the results depend on the processing

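The number of loci called between SW and FW, 2 of 9, was 1 with no filter (cCuZn-SOD2 lost), 1 with the replicate block (CatC lost) and 0 with the LOC_Osm1 covariate (limma; 1 had an unadjusted p under 0.05), and between 0 and 3 when single libraries were left out. Leaving out SR86 SW1, SR86 SW2 or SR86 FW2 gave 0 by limma, while 3, 3 and 4 loci kept p under 0.05 before adjustment. Over all features the count of 3012 was 1804 with no filter and 1477 with the covariate, and ran from 60 (without SR86 SW1) to 3822 (without SR86 FW3). Of the features called, 66.2% were higher in SW, against 46% with quantile normalization and 51.4% with median-ratio size factors. Between SR86 and R1 the covariate gave 0 loci (2 at an unadjusted p under 0.05) and 683 features in place of 1 and 3261. With a library left out the counts ran from 0 (without R1 FW1 or R1 FW3, with 3 and 2 loci at p under 0.05 before adjustment) to 3 loci (without SR86 FW3), and from 1646 to 4761 features.

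Reversed signs were seen in values near 0 or with the covariate. Between SW and FW these were CatB with quantile normalization (0.24), Fe-SOD b with quantile normalization (-0.088) and Mn-SOD with the covariate (0.067). Between SR86 and R1 they were Mn-SOD with median-ratio size factors (0.0036), and cCuZn-SOD1 (-0.012), cCuZn-SOD2 (-0.23), pCuZn-SOD (-0.063) and Fe-SOD b (-0.20) with the covariate. With a library left out, Mn-SOD ran from -0.13 to 0.054 and Fe-SOD a from -0.16 to 0.026 between the strains. The cause was not tested. The labels share replicate numbers between groups, but do not say whether same-numbered libraries were handled together. Across genes, their deviations from group means correlated at -0.06, 0.01 and 0.15 (SW and FW) and -0.03, 0.22 and 0.26 (SR86 and R1). Libraries of different number gave -0.183 to 0.205 and -0.360 to 0.214. Not every library correlated best with its own number. With deviations from means of 3 libraries, these values cannot decide whether the numbers mark pairs. With the replicate block 2048 features were called between SW and FW, with cCuZn-SOD2 but not CatC among the 9 loci (CatC -1.82, limma adjusted p = 0.0535), and 3489 between SR86 and R1, with CatC. CatC rests on few reads in SR86 SW and R1 FW, where its level was 0.61 FPKM or less.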

Other observations

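SR86 in SW and R1 in FW differ in both strain and water and were not tested against each other, but their levels can be set side by side. cCuZn-SOD1 had 257 to 333 FPKM in SR86 SW and 269 to 345 FPKM in R1 FW, which overlap. cCuZn-SOD2 had 377 to 537 FPKM in SR86 SW and 569 to 736 FPKM in R1 FW, with no overlap. CatA had 812 to 898 FPKM in SR86 SW and 420 to 518 FPKM in R1 FW, and CatB 348 to 430 FPKM and 470 to 491 FPKM, both without overlap. CatC had 0.32 to 0.61 FPKM in SR86 SW and 0.3 to 0.5 FPKM in R1 FW, which overlap. Mn-SOD, at 73.5 to 78.5 FPKM in SR86 SW, lay below R1 FW at 88.2 to 114 FPKM, and pCuZn-SOD, at 49.5 to 64.5 FPKM, lay above R1 FW at 39.3 to 40.1 FPKM. Fe-SOD a, at 13.5 to 16.7 FPKM in SR86 SW and 12.1 to 14.5 FPKM in R1 FW, and Fe-SOD b, at 1.42 to 2.78 FPKM and 1.2 to 1.43 FPKM, overlap. The groups thus did not overlap in 5 of the 9 loci, where 53.6% of the 23797 features averaging 0.5 FPKM or more in these libraries did not. CatC is below that filter here, so 8 of the 9 loci belong to these features, with the 5 among them.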
